A study of Homo sapiens with 27 samples.

Results

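The response to calcium oxalate crystals of any form was measured as the difference between 20 crystal-treated and 7 untreated RNA libraries of MCF10DCIS.com, which together are all 27 libraries of the series. MCF10DCIS.com is a premalignant human breast epithelial line of the MCF10A family. Cultures were started from 500000 cells, kept for 6 h at 37 °C and 5% CO2, and given crystals at 0.1 mg/mL. The treated groups were calcium oxalate monohydrate (COM) and 4 shapes of calcium oxalate dihydrate, with 4 libraries of each form: DB, whose crystals are dumbbells; SPH, spheres; TK, bipyramids of the thick kind; and TN, of the thin kind, set against untreated cells labelled Control (7 libraries). Every library came from the same line, so the comparison describes 1 line. The labels do not give the time with crystals and do not say that libraries of a group were separate cultures. A p-value here therefore reflects only how far these samples scatter, and that scatter may be technical. In each comparison the 5 forms counted equally, so the value for any crystal is the mean of the 5 form effects.

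Calcium oxalate is a mineral of breast microcalcifications and of kidney stones. Cells that touch or take up crystals are known to mount inflammatory signalling through NF-kB, a family of transcription factors that is held inactive by inhibitor proteins and that induces cytokines and its own inhibitors. They also use stress programmes: the factor ATF4, which induces amino acid transport and synthesis when protein synthesis is checked, and the heat shock factors, which induce chaperones when proteins unfold.

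By serial number the libraries form 3 runs, called here library sets. Set 1 held 8 crystal and 2 control libraries, set 2 held 8 and 4, and set 3 held 4 and 1. All 4 TK libraries were in set 2, where each other form had 1 library, so TK was compared with the other forms through the set term of the model and through those libraries. Total counts ran from 13115669 to 38672521 per library. The mean fragment length ran from 197.6 to 319.1 nt, and TN C, at 297 nt in set 2, stood outside the other libraries of that set. Summed over 8 basal epithelial markers, control libraries had 7549 to 9205 CPM, which are counts scaled to a common library size, and crystal libraries 7610 to 9197, so the epithelial identity was present in every library. The sum of 15 liver markers was 83.1 to 175 CPM in controls and 55.2 to 1478 CPM in crystal libraries, highest in TN B. Most of it in controls was SERPINA1 (74.2 to 165 CPM), while ALB was 0.12 to 8.74 CPM there and 653 CPM in TN B. The sum of 7 leukocyte markers was also highest in TN B (71.3 CPM, against 8.31 to 20.7 in controls). Of that sum LYZ alone held 58.1 CPM, and PTPRC and CD3E were at 0 in TN B. The erythroid marker HBB was at 0 in all libraries. In bulk RNA, fewer cells of a type and less RNA per cell cannot be told apart.

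Of 16173 genes tested with edgeR's quasi-likelihood test, 1701 (10.5%) differed between any crystal and control at a Benjamini-Hochberg adjusted p under 0.05. They comprised 984 higher genes (6.08%) and 717 lower genes (4.43%). These shares are the background for the counts of list members given below. Most changes were small. The median log2 fold change, on which 1 unit is a 2-fold change, was 0.24 among the higher genes and -0.27 among the lower ones, and 68 rises and 83 falls reached 1.5-fold. A change of 2-fold or more was reached by 18 higher and 14 lower genes. Every form lay on the called side for 876 of the higher and 609 of the lower genes. Within each library set separately, every crystal library lay above every control for 64 genes (0.396% of genes tested) and below every control for 14 (0.0866%), and all of these were among the genes called.

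PTGS2, which had the smallest adjusted p among the genes that rose, encodes the inducible cyclooxygenase that starts prostaglandin synthesis (GRCh38 chr1:186671791-186680427). Its level was 13.1, 20.1 and 23.6 CPM at the lowest, median and highest of the 7 controls and 19.9, 51.4 and 84.5 CPM in the 20 crystal libraries. The groups overlapped across sets through an SPH library of set 3, but within each set all crystal libraries were above all controls. PTGS2 rose by log2 1.39 (SE 0.11, edgeR adjusted p = 3.49e-09). Among the forms, COM gave 1.72, DB 1.61, SPH 0.64, TK 1.38 and TN 1.58, and these differed (edgeR adjusted p = 0.000243 for evenness). SPH carried less than the mean of the other 4 forms, while all 5 estimates were positive.

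**Figure D1:**
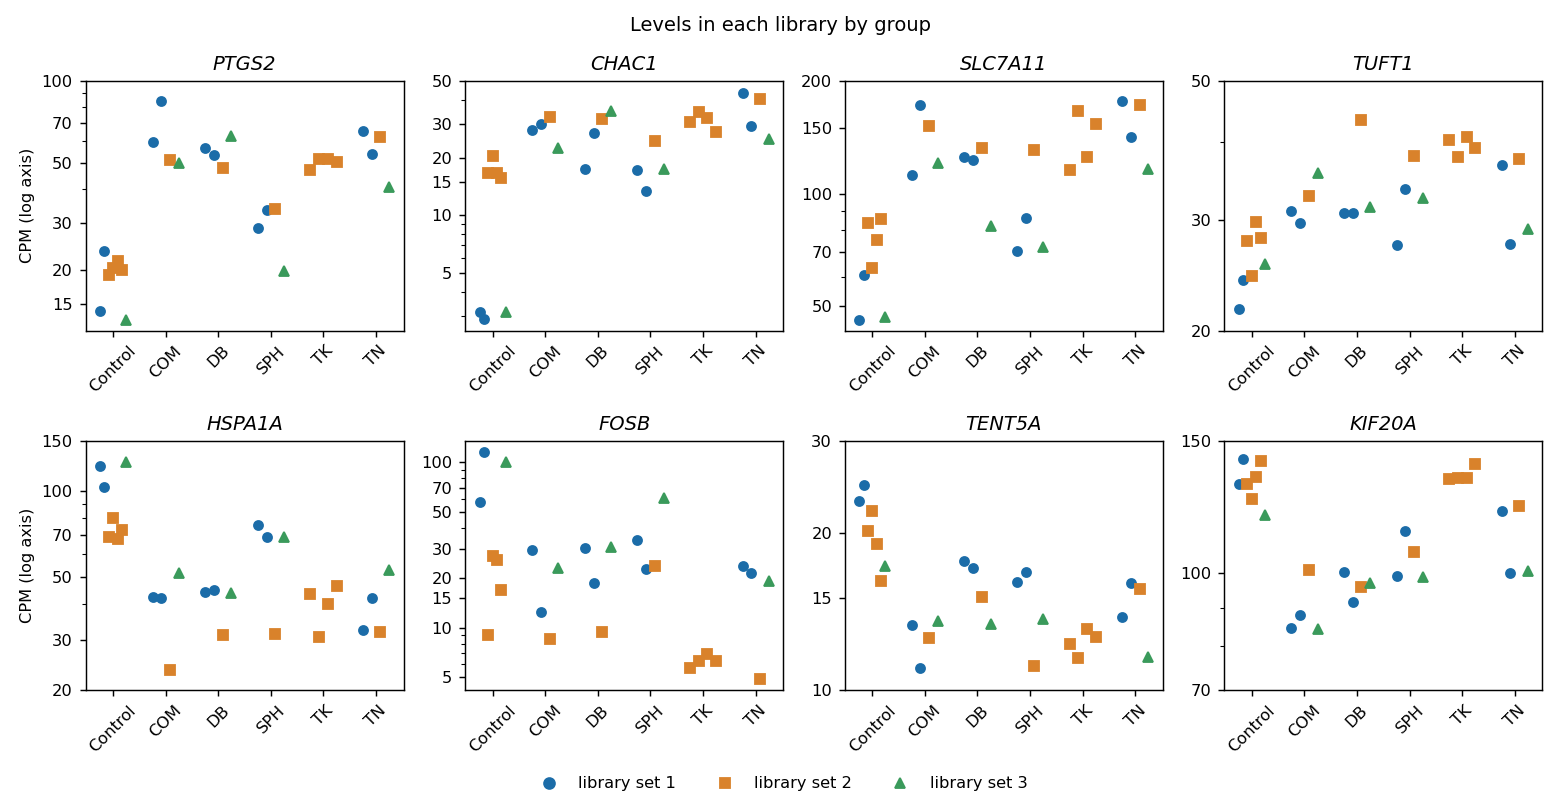
Level of 8 genes in each library (CPM, log axis) by group, with colour and shape giving the library set. Within each set PTGS2, CHAC1, SLC7A11 and TUFT1 were higher in every crystal library and HSPA1A and TENT5A lower, whereas FOSB overlapped with controls of set 2 and KIF20A in TK (133 to 140 CPM) lay within the control range of 119 to 142 CPM.

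Of the genes of the ATF4 and unfolded protein list, 16 of 31 measured rose, where 6.08% of all genes tested did. CHAC1, which breaks down glutathione and is a target of ATF4, had the largest change in its least affected form of all genes eligible to be named. Its level was 2.88 and 3.15 CPM in the set 1 controls against 13.3 to 43.2 CPM in the crystal libraries of that set. In set 2 the controls held 15.7 to 20.5 CPM and the crystal libraries 24.2 to 40.3 CPM, and in set 3 the control held 3.15 CPM against 17.5 to 35 CPM. Crystal libraries were thus higher in each set, but the starting level differed between sets. CHAC1 rose by log2 1.68 (SE 0.23, edgeR adjusted p = 3.9e-05), at 1.87 with COM and with DB, 1.20 with SPH, 1.29 with TK and 2.18 with TN. The difference between forms was not called (edgeR adjusted p = 0.113). These form estimates assume the same crystal effect in every set, but for CHAC1 it differed (3.02, 0.88 and 2.98 in sets 1, 2 and 3). TK lay in set 2 alone, so its estimate and the ranking rest on that assumption. Within set 2 TK held 27.2 to 34.5 CPM, COM C 32.4, DB C 31.7, SPH C 24.2 and TN C 40.3.

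SLC7A11, the cystine importer that supplies glutathione synthesis, had 46.1, 63.3 and 85.7 CPM at the lowest, median and highest control and 70.2, 125 and 177 CPM in the crystal libraries. It was apart in every set and rose by 1.02 (SE 0.10, edgeR adjusted p = 1.44e-07), from 0.58 with SPH to 1.37 with TN. SESN2, a sestrin that restrains growth signalling under stress, rose by 0.97 (SE 0.11). STC2, a secreted glycoprotein induced by stress of the endoplasmic reticulum, rose by 1.02 (SE 0.14), and without a set term its call was lost (log2 0.68, edgeR adjusted p = 0.11). Of the other 15 members of this list, 2 fell and 13 were not called. The list had a median of 0.20 against -0.01 over all genes tested. The transcription factors DDIT3 (0.98), ATF3 (0.64), ATF4 itself (0.25) and XBP1 (0.26), the pseudokinase TRIB3 (0.67) and the serine and one-carbon enzymes PSAT1 (0.45) and MTHFD2 (0.30) were among those that rose. The 2 that fell, HSP90B1 (-0.16) and PDIA4 (-0.15), encode a chaperone and a disulfide isomerase of the endoplasmic reticulum. TK carried this list least, with a median of 0.08 against 0.14 to 0.38 in the other forms. TK was called below the other forms for 9 of the 31 members and above them for 3, where 6.18% of all genes tested were called below and 5.61% above.

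The C/EBP-ATF response element, to which ATF4 binds with C/EBP proteins, was searched as TGATGCAA on both strands of RefSeq promoters of GRCh38.p14, from 250 bases before to 50 after the start. These letters stood in 57 of 11130 promoters of tested genes (0.512%), in 19 of 775 promoters of genes that rose (2.45%) and in 4 of 542 of genes that fell (0.738%). The 19 included 5 aminoacyl-tRNA synthetases, which load transfer RNA with amino acids: CARS1 (log2 0.25), IARS1 (0.18), MARS1 (0.24), NARS1 (0.21) and TARS1 (0.21). The following promoters are shown because they join CHAC1 with further genes of the same letters, which were chosen after their values were seen. The match is in capitals, reads TTGCATCA where it lies on the opposite strand, and each sequence is on the strand of its gene.
CHAC1 (chr15:40953221-40953470, plus strand): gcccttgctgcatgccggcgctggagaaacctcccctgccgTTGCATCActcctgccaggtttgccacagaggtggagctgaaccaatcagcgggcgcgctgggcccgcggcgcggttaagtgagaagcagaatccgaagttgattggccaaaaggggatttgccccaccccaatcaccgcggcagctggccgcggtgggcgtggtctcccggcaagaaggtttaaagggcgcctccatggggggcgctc
FGF21 (chr19:48755450-48755497, plus strand): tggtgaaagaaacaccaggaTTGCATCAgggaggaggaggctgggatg
IARS1 (chr9:92293698-92293730, minus strand): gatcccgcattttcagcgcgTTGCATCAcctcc
MTHFD1L (chr6:150866337-150866384, plus strand): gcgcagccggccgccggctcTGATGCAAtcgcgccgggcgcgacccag
PPP1R15B (chr1:204412017-204412064, minus strand): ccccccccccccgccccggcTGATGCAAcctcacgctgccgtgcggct
HERPUD1 (chr16:56931946-56931993, plus strand): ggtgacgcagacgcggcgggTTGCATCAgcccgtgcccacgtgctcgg
DSG3 (chr18:31447666-31447713, plus strand): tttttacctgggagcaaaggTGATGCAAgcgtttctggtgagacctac

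In CHAC1 the match ran from -209 to -202, counted from the first transcribed base as 0. FGF21, a stress-induced hormone, rose by log2 1.16 (SE 0.25, edgeR adjusted p = 0.00339) at a low mean level of 1.24 CPM. The FGF21 match is also read from the promoter of the divergent neighbour FUT1, a fucosyltransferase that rose by 0.51, so the pair shares 1 site. MTHFD1L, a mitochondrial folate enzyme, rose by 0.14, PPP1R15B, a phosphatase subunit that restores translation after stress, by 0.20, and HERPUD1, of the degradation of misfolded proteins, by 0.20. The desmosomal cadherin DSG3 rose by 0.43 (SE 0.06, edgeR adjusted p = 0.000109). SESN2, STC2 and PTGS2 had promoters in the table without these letters. A match is a description of the sequence and not a measured binding site.

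Inflammatory genes formed the list with the most rises. Of 31 measured members of the NF-kB and inflammatory list, 21 rose, none fell and 10 were not called, with a median of 0.41 against -0.01 over all genes. Among cytokines and chemokines, CSF2, a growth factor of granulocytes and macrophages, rose by 1.13 (SE 0.18), CCL20, which attracts lymphocytes and dendritic cells, by 0.94 (SE 0.11) and CXCL8, which attracts neutrophils, by 0.74 (SE 0.08). CXCL1 rose by 0.62, CXCL3 by 0.73 and CXCL2 by 0.41, and reads of these similar genes may be divided uncertainly. LIF, which signals through the shared receptor of interleukin-6 cytokines, had 377, 400 and 540 CPM at the lowest, median and highest control and 437, 611 and 836 CPM with crystals. The LIF ranges overlapped, and the rise was 0.50 (SE 0.05, edgeR adjusted p = 2.26e-06). The inhibitors that NF-kB itself induces also rose: TNFAIP3 by 0.58 (SE 0.07), ZC3H12A by 0.39 and NFKBIA by 0.19. Of the subunits, RELB rose by 0.27 and NFKB1 by 0.18.

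The inflammatory list was carried unevenly. Its median was highest with COM (0.74), then DB (0.42), TN (0.40), TK (0.22) and SPH (0.12), and 19 of 31 members differed between the forms, against 16.3% of all genes tested. COM was above the mean of the other forms for 14 members (2.2% of all genes) and below it for none. SPH was below the other forms for 6 members (0.111% of all genes) and TK for 8 (6.18%). SOD2, the mitochondrial superoxide dismutase, rose by 0.51 on average but by 1.02 with COM and 0.05 with SPH. CCL2, a chemokine for monocytes, rose by 0.60 on average with values of 1.32 for TK and 1.42 for TN and of -0.47 for DB and -0.30 for SPH. The negative feedback genes TNFAIP3 (0.61, 0.56, 0.34, 0.71 and 0.65 for COM, DB, SPH, TK and TN), ZC3H12A and NFKBIA were not called uneven.

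The interleukin-1 ligands rose together but on different starting levels in each set. IL1B, the secreted interleukin-1 beta, had 123 and 139 CPM in the set 1 controls against 182 to 401 CPM with crystals, 62.5 to 85.5 against 71.9 to 118 CPM in set 2, and 169 against 169 to 298 CPM in set 3. The set 2 ranges overlapped through TK libraries, whose 4 values were 71.9 to 77.3 CPM. IL1B rose by 0.56 (SE 0.10, edgeR adjusted p = 0.000562), with 1.06 for COM and 0.08 for TK, and IL1A rose by 0.54 (SE 0.07), with 0.84 for COM and 0.22 for TK. Without a set term the IL1B call was lost (log2 0.74, edgeR adjusted p = 0.064).

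Of 29 measured heat shock genes 9 fell, none rose and 20 were not called, where 4.43% of all genes tested fell. HSPA1A, the inducible HSP70 chaperone (GRCh38 chr6:31815464-31817946), had 67.6, 80.6 and 126 CPM at the lowest, median and highest control and 23.5, 42.9 and 76.1 CPM with crystals. Within each set every crystal library was below every control. HSPA1A fell by 1.18 on the log2 scale (SE 0.08, edgeR adjusted p = 1.05e-10) and HSPA1B by 0.995 (SE 0.06, edgeR adjusted p = 4.63e-12). The 2 genes are almost the same in sequence, so the division of reads between them is uncertain. The HSPA1A estimates were -1.44 (COM), -1.37 (DB), -0.82 (SPH), -0.84 (TK) and -1.41 (TN). These differed (edgeR adjusted p = 0.000891 for evenness), and of the forms TK alone was called apart from the mean of the other 4 (edgeR adjusted p = 0.0237, against 0.0645 for SPH). The median of the heat shock list was -0.11. The constitutive HSPA8 fell by 0.39 (SE 0.07), the co-chaperones DNAJA1 by 0.36 (SE 0.06) and DNAJB1 by 0.22 (SE 0.05), and the cytosolic HSP90AA1 by 0.24 (SE 0.05).

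Several chaperone partners of HSP70 and HSP90 did not fall in the TK estimates. HSP90AA1 was 0.05 with TK against -0.19 to -0.44 with the other forms, DNAJA1 0.05 against -0.27 to -0.67, and HSPH1, a nucleotide exchange factor for HSP70, 0.23 against -0.09 to -0.55. TK was above the mean of the other forms for 17 of the 29 heat shock genes, where 5.61% of all genes were, while COM and DB were each below the other forms for 7 (1.59% and 4.09% of all genes). DNAJB1 was the most even of those that fell, at -0.16, -0.22, -0.23, -0.21 and -0.28 for COM, DB, SPH, TK and TN (edgeR adjusted p = 0.76 for evenness). Leaving out Control A or Control G reduced the list's count of falls from 9 to 6, and leaving out the TK libraries gave 11.

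The heat shock element, bound by heat shock factors, was searched on both strands as GAA, 2 bases of any kind, TTC, 2 of any kind and GAA. It stood in 36 promoters of tested genes (0.323%), in 8 of 542 promoters of genes that fell (1.48%) and in 1 of 775 of genes that rose (0.129%). The 8 included 4 chaperone genes, HSPA8, DNAJA1, CHORDC1 and HSPA6, and 4 other genes, GLI2, IFT172, ITPRID1 and PHF8. Promoters of 3 of the chaperone genes are shown with the match in capitals, since they are the fallen chaperones with the element before the start. CHORDC1 holds overlapping matches, and the capitals cover them all. HSPA8 holds 2 matches, of which only the first, at -230 to -218, lies in the stretch shown.
HSPA8 (chr11:123062334-123062386, minus strand): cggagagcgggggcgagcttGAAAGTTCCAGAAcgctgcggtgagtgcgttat
CHORDC1 (chr11:90223077-90223129, minus strand): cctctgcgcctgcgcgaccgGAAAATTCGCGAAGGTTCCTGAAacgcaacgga
HSPA6 (chr1:161524446-161524498, plus strand): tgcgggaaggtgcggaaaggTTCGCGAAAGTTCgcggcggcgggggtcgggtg

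CHORDC1, which assists HSP90, fell by 0.30 (SE 0.09, edgeR adjusted p = 0.0223), with -0.74 for COM and 0.05 for TK. HSPA6, an inducible HSP70 whose reads may be shared with similar copies, fell by 0.47 (SE 0.15) at a low mean level of 1.76 CPM. The promoter of HSPA1A in the table did not hold these letters. For comparison, NF-kB letters (GGG, 2 bases of any kind, TT, 1 of any kind, CC) stood in 8.52% of promoters of genes that rose and 6.74% of all, and AP-1 letters (TGANTCA) in 6.19% and 4.97%. Letters of the serum response element (CCATAT, 2 bases of any kind, GG) stood in none of the 775 promoters of genes that rose, 5 of the 542 of genes that fell (0.923%) and 38 of all (0.341%).

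Immediate early transcription factors, which switch on within minutes of a stimulus, divided by member. The FOS and JUN genes encode subunits of AP-1. FOSB had 9.03 to 27.3 CPM in the set 2 controls against 4.91 to 23.5 CPM with crystals, 57.2 and 115 against 12.5 to 33.7 CPM in set 1, and 99.98 against 19.1 to 60.7 CPM in set 3. Ranges were apart in sets 1 and 3 and overlapped in set 2. FOSB fell by 1.54 (SE 0.19, edgeR adjusted p = 9.19e-06), FOS by 0.82 (SE 0.12) and JUN by 0.57 (SE 0.10). FOS fell most with TK (-1.62) and TN (-1.25) and least with SPH (-0.30). DUSP1, a phosphatase that switches off MAP kinases, fell by 0.68 (SE 0.14), a call lost within set 2 alone (log2 -0.30, edgeR adjusted p = 0.33). KLF4, a factor of epithelial differentiation, rose by 0.86 (SE 0.11, edgeR adjusted p = 1.51e-05), the AP-1 subunit FOSL1 by 0.36 (SE 0.07), ATF3 by 0.64 and MAFF by 0.31. Of 21 measured immediate early genes 6 rose and 3 fell, where 6.08% and 4.43% of all genes did.

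EGR3, another immediate early factor, rose by 0.53 on average (SE 0.10) with the forms on different sides. Its 4 DB libraries held 24.9 to 33.8 CPM and its 4 TK libraries 7.78 to 9.95 CPM, against 9.64 to 14.5 CPM in controls. All DB libraries were above all controls, and the highest TK value lay just above the lowest control. The estimates were 1.25 for DB, 0.97 for SPH, 0.67 for COM, 0.16 for TN and -0.38 for TK. HBEGF, a growth factor that binds the EGF receptor, rose by 0.68 (SE 0.09, edgeR adjusted p = 4.58e-05), with 163, 202 and 263 CPM at the lowest, median and highest control and 240, 320 and 507 CPM with crystals. Its estimate was 0.31 with TK and 0.57 to 0.92 with the other forms. Of 25 measured genes of ERK and EGF receptor signalling 6 rose and 3 fell, where 6.08% and 4.43% of all genes did.

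**Figure D2:**
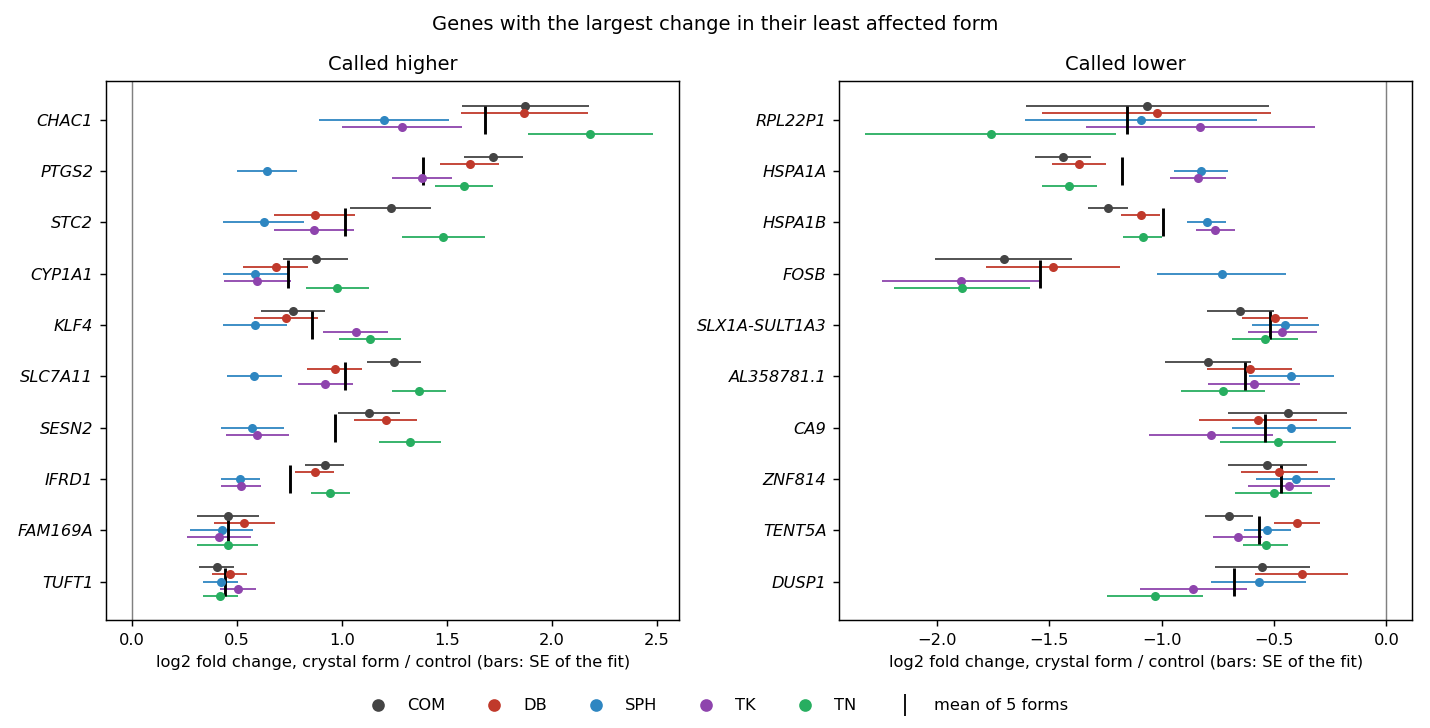
Log2 fold change of each crystal form against control (points, bars are the SE of the fit) and the mean of the 5 forms (black tick) for the 10 genes with the largest change in their least affected form in each direction. PTGS2 (0.64 for SPH) and HSPA1A (-0.82 for SPH) spread between forms, while TUFT1 (0.40 to 0.50) and FAM169A (0.41 to 0.54) did not.

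A few genes moved by nearly the same amount with each form. TUFT1, which encodes tuftelin, a protein named for its place in mineralizing enamel, had 21.7, 25.5 and 29.8 CPM at the lowest, median and highest control and 27.4, 33.3 and 43.3 CPM with crystals, and was apart within every set. TUFT1 rose by 0.44 (SE 0.06, edgeR adjusted p = 2.64e-05), at 0.40, 0.47, 0.42, 0.50 and 0.42 for COM, DB, SPH, TK and TN. The evenness test did not call it (edgeR adjusted p = 0.915), nor FAM169A, which rose by 0.46 (SE 0.11) and by 0.41 to 0.54 per form. The form estimates of FAM169A had SEs of 0.145 to 0.152, and its call was lost in 3 of 16 settings. CYP1A1, a cytochrome induced through the aryl hydrocarbon receptor, rose by 0.74 (SE 0.11, edgeR adjusted p = 0.000112), from 0.59 with SPH to 0.98 with TN, at low levels of 4.21 to 6.85 CPM in controls and 5.27 to 13.7 CPM with crystals. IFRD1, a transcriptional coregulator, rose by 0.75 (SE 0.07, edgeR adjusted p = 5.11e-08) but unevenly, from 0.52 with SPH and with TK to 0.95 with TN (edgeR adjusted p = 0.0047 for evenness).

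Falls with every form included TENT5A, a poly(A) polymerase that lengthens RNA tails, with 16.1, 20.2 and 24.6 CPM at the lowest, median and highest control and 11, 13.5 and 17.7 CPM with crystals. It was below the controls in every set and fell by 0.57 (SE 0.07, edgeR adjusted p = 9.07e-06), by 0.40 with DB to 0.70 with COM. The zinc finger gene ZNF814 fell by 0.47 (SE 0.12) at about 5 CPM. The readthrough gene SLX1A-SULT1A3 (-0.52), the antisense gene AL358781.1 (-0.63) and the pseudogene RPL22P1 (-1.15) also met the rule, and their reads may belong to overlapping or similar genes. The RPL22P1 call was lost in 8 of 16 settings and in 3 of 27 fits without 1 library, with values from -0.63 to -2.20.

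Of 29 measured hypoxia and glycolysis genes 10 fell, 2 rose and 17 were not called, with a median of -0.12. Over all genes tested 4.43% fell and 6.08% rose. The 10 included the prolyl hydroxylases EGLN3 (-0.76), P4HA1 (-0.31) and P4HA2 (-0.26), ANKRD37 (-0.75) and the histone demethylase KDM3A (-0.29). Also among them were the mitophagy receptor BNIP3 (-0.24), the peptide hormone ADM (-0.33), and PFKFB4 (-0.19) and PFKFB3 (-0.15), regulators of glycolysis. CA9, a carbonic anhydrase, fell by 0.54 (SE 0.18, edgeR adjusted p = 0.0487), a call lost in 7 of 16 settings and in 20 of 27 fits without 1 library. The control with the highest level was Control D, and without it CA9 was at -0.43 (edgeR adjusted p = 0.13). EGLN3 was low, at 1.73 to 2.54 CPM in controls and 0.388 to 2.79 CPM with crystals, and its TK libraries (1.93 to 2.79 CPM) overlapped the controls. The 2 that rose were VEGFA (0.24), an angiogenic growth factor, and the glucose transporter SLC2A1 (0.19). Without Control A 5 members fell, and without Control G or without TK 6 did. Glycolytic flux and oxygen were not measured.

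Epithelial differentiation and junction genes rose in part. Of 27 measured keratinocyte differentiation genes 10 rose (6.08% of all genes did) and none fell, with a median of 0.22. They included the transcription factors ZNF750 (0.62), OVOL1 (0.36) and GRHL3 (0.31), the crosslinking enzyme TGM1 (0.75), its substrate IVL (0.38) and the cornified envelope genes SPRR2E (1.27), SPRR2D (0.50) and SPRR3 (0.66), of which the SPRR2 copies are nearly identical. The forms differed for 20 of the 27 (16.3% of all genes), and DB was above the others for 10 (4.14% of all genes). The medians were 0.45 with DB, 0.43 with COM, 0.20 with TK, 0.01 with TN and -0.01 with SPH. ZNF750 was 1.22 with DB and 0.17 with TK. Without Control A, Control G or TK 7 members rose.

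Among 27 measured junction genes 5 rose and none fell, where 6.08% of all genes rose. CLDN1, a tight junction claudin, had 218 to 250 CPM in controls and 251 to 407 CPM with crystals, and the ranges did not overlap. It rose by 0.47 (SE 0.06, edgeR adjusted p = 5.64e-06), least with SPH (0.27) and most with TN (0.59). Occludin (OCLN) rose by 0.32 and cingulin (CGN) by 0.40, both of the tight junction, and the nectin NECTIN4 by 0.29. DSG3 was 0.83 with DB and 0.16 with TK. The adherens junction cadherin CDH1 was 0.05 (SE 0.05, edgeR adjusted p = 0.518), with 0.36 for DB and -0.15 for TK.

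Proteases and adhesion molecules gave averages that hide the forms. PLAU, the urokinase plasminogen activator, had 112, 132 and 175 CPM at the lowest, median and highest control and 145, 223 and 386 CPM with crystals, and was apart within every set. PLAU rose by 0.55 (SE 0.06, edgeR adjusted p = 4.65e-06), with 0.29 for TK and 0.92 for DB. PLAT, the tissue plasminogen activator, fell by 0.41 (SE 0.08), with -1.04 for TK and 0.08 for COM, and without TK its call was lost (log2 -0.25, edgeR adjusted p = 0.11). The collagenase MMP1 was not called at -0.39 (SE 0.19, edgeR adjusted p = 0.204), although its estimates ran from 1.06 for DB to -2.39 for TK, and without TK the mean was 0.11. MMP1 was called lower in 4 of 16 settings (without COM or DB, with no filter and with TN C in set 1) and without TN C, down to -0.75. Of 22 measured matrix proteases and inhibitors 2 rose (6.08% of all genes), 1 fell (4.43%) and 16 differed between forms (16.3%). COM was above the others for 12 (2.2% of all genes), DB for 9 (4.14%), and TK below them for 14 (6.18%). Of 26 integrin and matrix genes 3 rose and 4 fell, where 6.08% and 4.43% of all genes did. ITGA5 (0.25), ITGAV (0.20) and ITGB8 (0.26) rose and ITGB5 (-0.23), SPARC (-0.21), COL4A1 (-0.19) and COL4A2 (-0.21) fell. Without Control A none rose and 2 fell, without Control G none rose and 4 fell, and without TK 1 rose and 1 fell.

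Smaller groups completed the response, where 6.08% of all genes tested rose and 4.43% fell. Of 27 measured p53 targets 9 rose and none fell, including the cell death genes PMAIP1 (0.48, SE 0.07) and TNFRSF10B (0.14), the cell cycle inhibitor CDKN1A (0.21), GADD45A (0.48) and MDM2 (0.20), the ligase that degrades p53, and 5 without Control A and 6 without TK. SESN2 belongs to this list and to that of ATF4. Of 22 measured NRF2 and redox genes 4 rose and 3 fell: SLC7A11, the thioredoxin reductase TXNRD1 (0.37), SRXN1 (0.22) and GCLC (0.17) against NQO1 (-0.24), TKT (-0.21) and the metallothionein MT2A (-0.29). The heme oxygenase HMOX1 was not called (0.05, SE 0.13, edgeR adjusted p = 0.84). Of 29 lysosome and autophagy genes 6 rose, among them TRIM16 (0.35), SQSTM1 (0.21), MAP1LC3B (0.24) and the lysosomal calcium channel MCOLN1 (0.23), and CTSZ fell (-0.19). Without Control A 4 of this list rose, without Control G 3, and without TK 2 of 28 measured. Of 27 cholesterol synthesis genes 5 rose and none fell, among them the lanosterol synthase LSS (0.42) and CYP51A1 (0.27). Over COM, DB, SPH and TN, LSS was 0.16, 0.63 and -0.02 within sets 1, 2 and 3, and CYP51A1 0.14, 0.45 and 0.07. LSS was called uneven (edgeR adjusted p = 0.0142), with 0.09 for COM and 0.77 for TK. The CYP51A1 call was lost in 4 of 16 settings.

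Few genes of calcium and mineral handling were called for any crystal. The forms differed for 10 of 30 calcium handling and 7 of 18 oxalate and mineralization genes, against 16.3% of all genes tested. Of 30 calcium handling genes 1 rose and 2 fell, near the shares of all genes tested (6.08% and 4.43%). RCAN1, a calcineurin regulator, rose by 0.22. ITPR1, the inositol trisphosphate receptor, and CAMK2B, a calmodulin-dependent kinase, fell by 0.30 and 0.43. The CAMK2B average combined 0.49 with DB, -0.09 with COM, 0.22 with SPH, -1.77 with TK and -0.999 with TN, and without TK it was -0.09 (edgeR adjusted p = 0.7). Of the 18 oxalate and mineralization genes 2 fell and none rose, where 4.43% and 6.08% of all genes did. The calcification inhibitor MGP fell by 0.30 (SE 0.06) and SPARC by 0.21. Without TN B 4 members fell. SPP1, which encodes osteopontin, had 0.0531 to 0.72 CPM in controls and 0.116 to 18.2 CPM with crystals, of which the highest was TN B, the library with the highest liver marker sum. SPP1 was not called (0.87, SE 0.60, edgeR adjusted p = 0.383), and the part of the liver transcripts in it was not tested.

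Ribosomal protein genes (0 of 29 called), mitochondrially encoded genes (0 of 13) and oxidative phosphorylation subunits (1 of 30, COX6B1 at -0.23) showed medians of -0.10, 0.02 and -0.15. Over all genes tested the median was -0.01 and 10.5% were called. The estimate was above 0 for 1 of 29, 7 of 13 and 1 of 30 members in that order, against 7546 of 16173 genes tested. DB stood lowest for the oxidative phosphorylation list, at a median of -0.41. Of 25 interferon-stimulated genes 2 rose, where 6.08% of all genes did: IRF1 (0.31) and DDX58 (0.24), a sensor of viral RNA. The DDX58 call was lost in 10 of 16 settings and in 19 of 27 fits without 1 library.

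**Figure D3:**
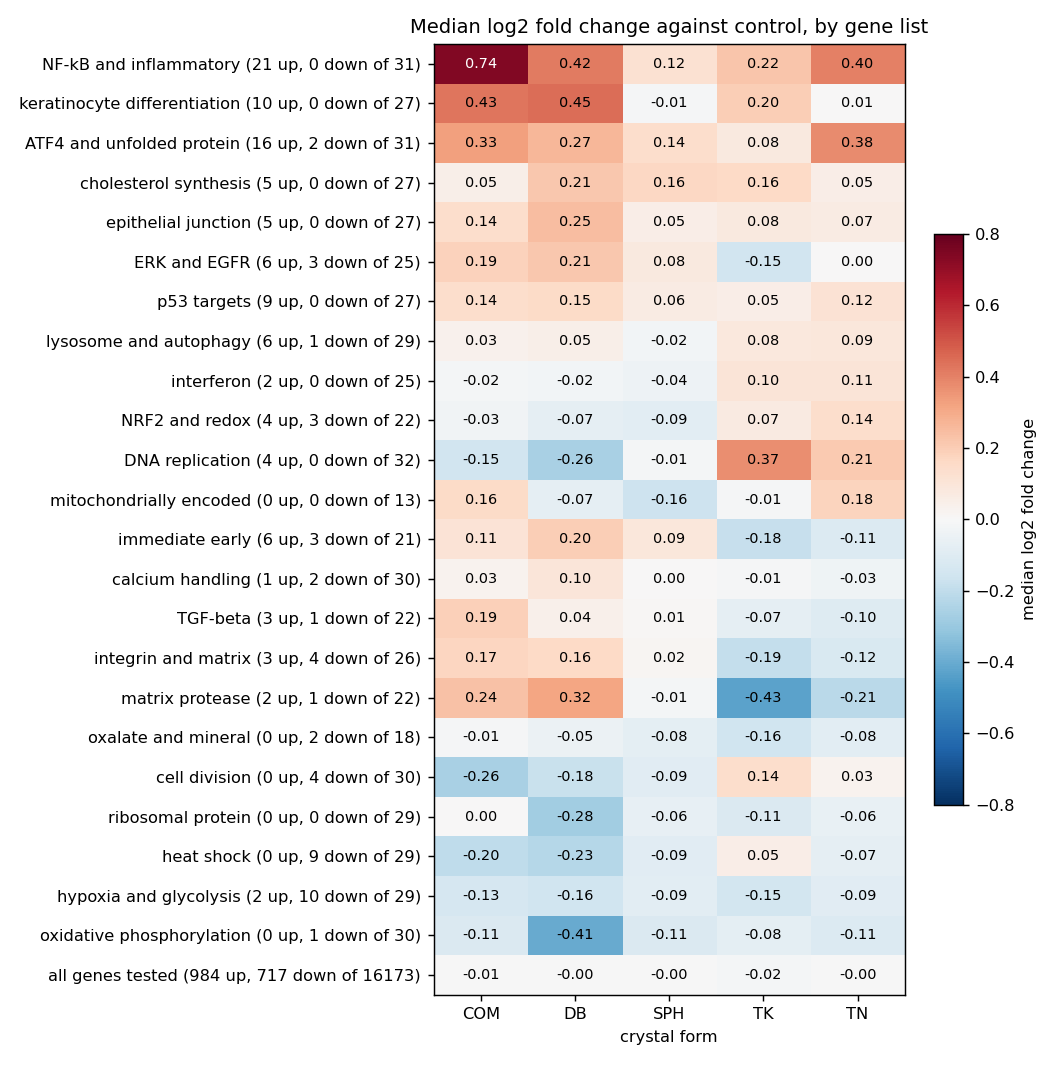
Median log2 fold change against control of each crystal form (columns) for 23 gene lists and all genes tested (rows), with the number of members called higher and lower for any crystal. The NF-kB and inflammatory list is positive with every form (0.12 for SPH to 0.74 for COM), while DNA replication runs from -0.26 for DB to 0.37 for TK.

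How evenly the forms carried the response was tested by comparing the forms with each other, in the same fit, where the controls enter through the set terms and the dispersion. The 5 forms differed for 580 of the 1701 genes called for any crystal (34.1%) and for 2051 of the genes not called (14.2%). No difference was called for the other 1121, and 634 rises and 467 falls had all forms on their side and no called difference. A missed threshold does not show that the forms were equal. The median change over the 984 higher genes was 0.27, 0.28, 0.15, 0.24 and 0.31 for COM, DB, SPH, TK and TN, and over the 717 lower genes -0.26, -0.26, -0.16, -0.35 and -0.36. SPH had the smallest estimate for 431 of the higher and 279 of the lower genes, and the largest for 5 and 13. TN had the largest estimate for 329 higher genes and TK for 264 lower genes.

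Tests of each form against the mean of the other 4 showed where the departures lay. Over all genes tested, TK departed in 1907 genes (11.8%), DB in 1331 (8.23%), COM in 613 (3.79%), TN in 166 (1.03%) and SPH in 40 (0.247%). These counts moved with single libraries and with the set term, so the order of COM, TN and SPH is not firm: COM had 42 without COM A, TN 20 without TN B and 1166 without TN C, and SPH 10 without SPH B. DB had 317 without DB D, and TK 1138 without TK C and 4276 with no set term. With TN C placed in set 1 TN had 967. Of the 984 higher genes, TK was below the other forms for 106 and above them for 75, DB was above for 89 and below for 31, and COM was above for 51 and below for 13. TN was above for 29 and below for 5, whereas SPH was below for 18 and above for 1. Of the 717 lower genes TK was below for 125 and above for 45, TN below for 19 and above for none, and SPH above for 15 and below for none. DB was above for 53 of them and below for 22, and COM above for 37 and below for 29. Shares above and below over all genes tested were 5.61% and 6.18% for TK, 4.14% and 4.09% for DB and 2.2% and 1.59% for COM. For TN they were 0.662% and 0.365%, and for SPH 0.136% and 0.111%. Among the 984 higher genes DB was below for 3.15% and COM for 1.32%, under those shares. Among the genes called for any crystal, SPH departures thus lay almost wholly toward the controls and those of TN mainly away from them. Those of TK, DB and COM lay on both sides. Each form is part of the mean by which these genes were called.

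**Figure D4:**
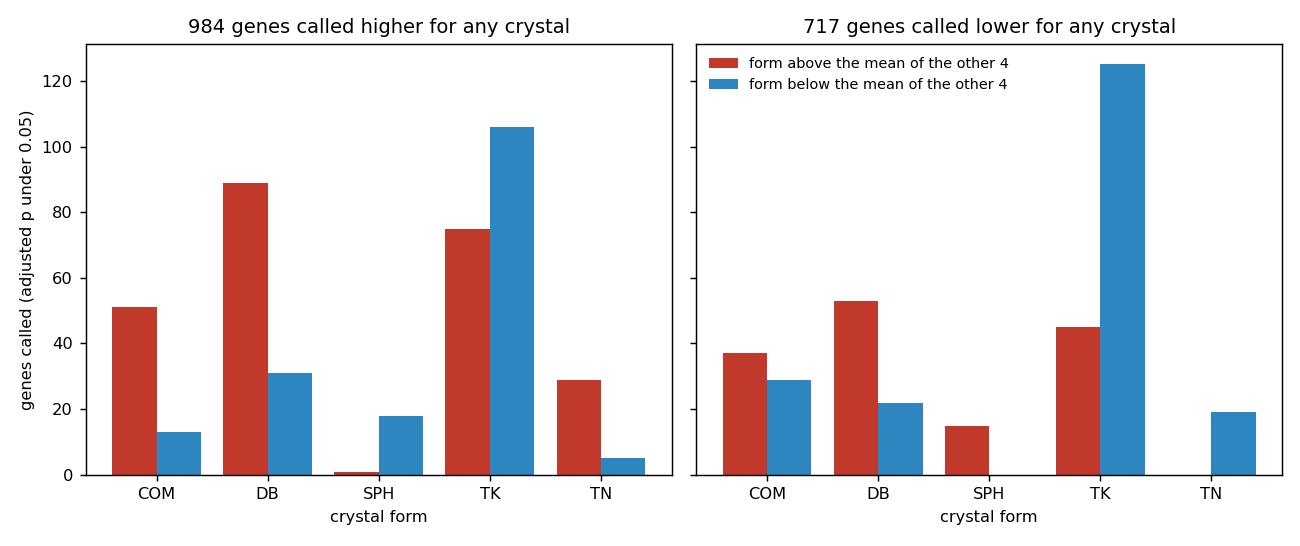
Number of genes for which a form was above (red) or below (blue) the mean of the other 4 forms at an edgeR adjusted p under 0.05, among the 984 genes called higher and the 717 called lower for any crystal. TK gives the tallest bars on both sides (106 and 125 below), and SPH bars reach 18 at most.

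Cell cycle genes were carried unevenly, where 16.3% of all genes tested differed between forms. Of 32 measured DNA replication and G1/S genes 30 differed between forms. For any crystal 4 rose and none fell, where 6.08% and 4.43% of all genes did. They were the cyclins CCNE2 (0.47), CCNE1 (0.35) and CCND1 (0.17), which drive entry into S phase, and RFC3 (0.22), a clamp loader. Without TK none of the 32 was called, with CCNE1 at 0.26 (edgeR adjusted p = 0.13) and CCND1 at 0.15 (edgeR adjusted p = 0.062). Without Control A 1 member rose, and without Control G 2 did. TK was above the other forms for 26 of the 32 (5.61% of all genes), DB below for 23 (4.09%) and COM below for 12 (1.59%). Medians were -0.15, -0.26, -0.01, 0.37 and 0.21 for COM, DB, SPH, TK and TN. For CCNE1 the estimates were 0.14, 0.05, 0.22, 0.74 and 0.62 in that order. Of 30 cell division genes 26 differed between forms and 4 fell on average. KIF20A, a kinesin of cytokinesis, had 119 to 142 CPM in controls, 84.5 to 101 CPM with COM, 91.7 to 100 CPM with DB and 99 to 114 CPM with SPH. Those 3 forms did not overlap the controls, TN (100 to 123 CPM) overlapped slightly, and TK lay inside the control range. KIF20A fell by 0.30 (SE 0.04, edgeR adjusted p = 5.14e-05). MKI67, a marker of cycling cells, was not called (-0.13, SE 0.09, edgeR adjusted p = 0.341), with -0.39 for COM and 0.26 for TK.

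Other genes whose average joined opposite estimates were SMAD6, an inhibitor of BMP signalling, and LRIG1, an inhibitor of the EGF receptor. SMAD6 fell by 0.49 on average (SE 0.10), with -1.51 for DB and 0.39 for TK, and without DB its call was lost (log2 -0.24, edgeR adjusted p = 0.074). LRIG1 fell by 0.19, with 0.10 for DB and -0.50 for TK. DDIT3, which encodes the stress factor CHOP, rose by 0.98 (SE 0.13, edgeR adjusted p = 2.95e-05), with 0.29 for TK and 0.87 to 1.34 for the other forms. Its control levels were 3.52 and 4.12 CPM in set 1 and 8.51 to 12.5 CPM in set 2, where the TK libraries held 12.2 to 15.1 CPM, so TK overlapped its own set's controls.

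**Figure D5:**
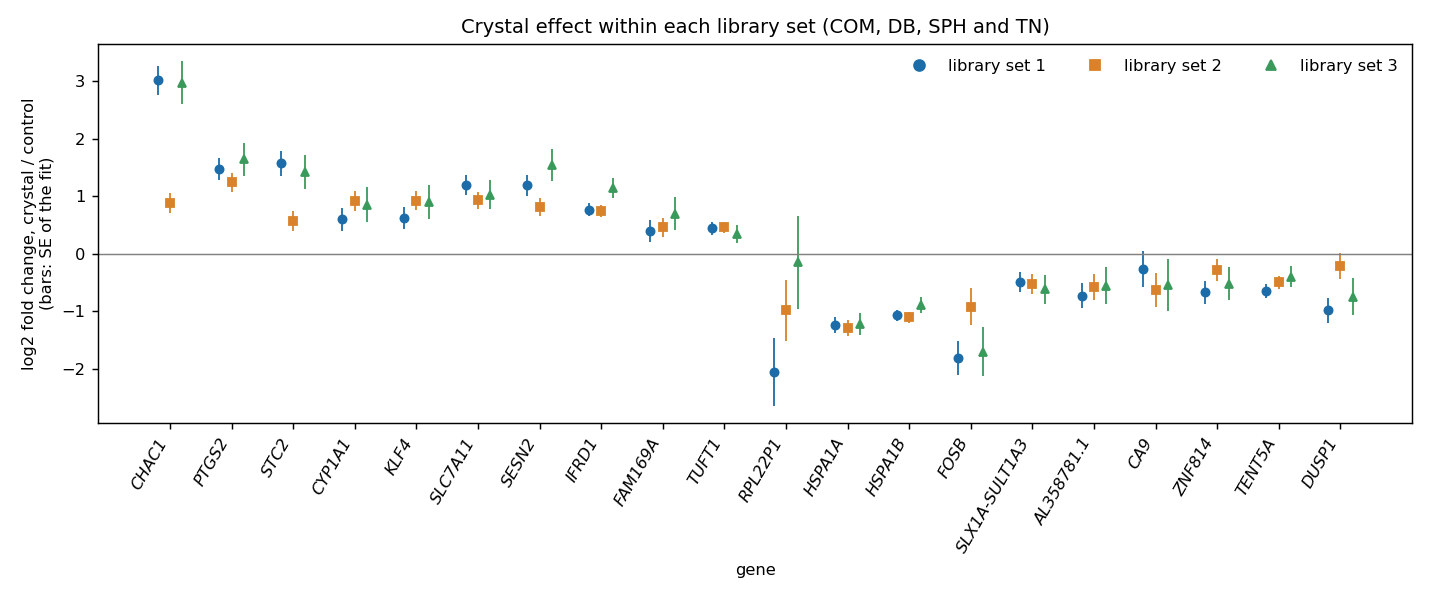
Log2 fold change of COM, DB, SPH and TN together against control within each library set (points, bars are the SE of the fit) for the 20 genes with the largest change in their least affected form. CHAC1 was 3.02 in set 1, 0.88 in set 2 and 2.98 in set 3, while PTGS2 (1.47, 1.24 and 1.64) and HSPA1A (-1.24, -1.29 and -1.23) were close in all sets.

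The crystal effect was also compared between library sets over the forms present in all of them. It differed for 1 gene of 16173 (0.00618%), CHAC1, by edgeR's test (adjusted p = 0.00252), while 653 genes had an unadjusted p under 0.05. PTGS2 was 1.47, 1.24 and 1.64 within sets 1, 2 and 3, SLC7A11 1.19, 0.93 and 1.02, and HSPA1A -1.24, -1.29 and -1.23. STC2 was 1.57, 0.56 and 1.42, and its controls held 29.6 and 35.9 CPM in set 1, 102 to 122 CPM in set 2 and 40.3 CPM in set 3. SESN2 controls were likewise higher in set 2 (32 to 38.1 CPM) than in set 1 (17.3 and 17.4 CPM) and set 3 (14.1 CPM). Untreated cells of set 2 thus had higher levels of CHAC1, STC2, SESN2 and DDIT3 than those of the other sets, and the cause was not tested.

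The number of genes called rested on the sets and on single libraries more than the leading genes did. Fitted within set 1 alone 100 genes were called and within set 2 alone 729, of which 91 and 486 were among the 1701. Without a set term 652 were called, 651 of them shared. Without Control A, 1 of 2 controls of set 1, 916 were called, and without Control G, the control of set 3, 1093. Without the TK libraries 1084 were called, 987 of them shared. Of 55 named genes that were called, 16 kept their call in every alternative run: CHAC1, CXCL8, HBEGF, IFRD1, LIF, PLAU, PMAIP1, PTGS2, SESN2 and SLC7A11 among the rises and FOS, FOSB, HSPA1A, HSPA1B, KIF20A and TENT5A among the falls.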

How the data were processed

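Polyadenylated RNA of 27 libraries was analysed. Each library has a table of genes in which the authors gave expected counts and effective lengths, per the file headers. Tools named in the submitters' processing notes are Trim Galore, Bowtie2 and RSEM, with build GRCh38. Their versions, the strand setting and the annotation release were not given in the sources used here. When counting, RSEM divides reads that fit several genes, so near-identical copies are uncertain, and antisense partners cannot be told apart. Effective lengths, deposited in nucleotides, were used only for fragment length. Expected counts were rounded to whole numbers.

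With edgeR 4.0.16 (R 4.3.3), filterByExpr retained 16173 of 60683 genes. Libraries were scaled by TMM and the counts fitted with a mean per group and per library set over all libraries. Contrasts were the mean of the 5 forms minus control, equality of the forms, each form minus the other 4, and crystal by set. Estimates of single forms against control share the controls and were not tested. A call is an adjusted p under 0.05. Levels are CPM on TMM-adjusted library sizes, marker sums CPM on plain totals. Coordinates are those of GENCODE 29 (15988 genes, 98.9%, matched by identifier), promoters those of RefSeq on GRCh38.p14 (46 of 60 named genes had one). On simulated data for any crystal against control with 16173 genes, 97% of 100 genes changed by log2 0.5 and all 100 changed by 1 were recovered, with 8 false calls. Those data gave all crystal libraries the same change, in genes of 5 CPM or more, with spread taken from the trend over genes. Uneven forms and single deviating libraries were therefore not simulated. Genes were named as the 10 rises and 10 falls with the largest change in their least affected form (mean of 5 CPM or more), the 4 largest uneven rises and falls, up to 2 called members of each of 23 lists, and 12 followed genes. The groups compared, lists and followed genes were chosen with earlier results of these data known, and other list members and genes with promoter matches were singled out after their values were seen. Alternatives were DESeq2 1.42.0, its size factors, no filter, other set and block terms, fragment length, TN C in set 1, and leaving out forms, sets or single libraries. Counts of list members without Control A, Control G, TN B, TN C or TK were added after the data were seen. No pair of libraries in a group agreed within sampling noise (lowest chi-square per degree of freedom 2.387).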

Additional observations from a re-analysis of the deposited data

Results flagged for a closer look

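Among 122 groups of levels examined for a single library standing apart, 10 had one, and about 1 in 20 does by chance. In the controls, Control D was high for CA9 (24.7 CPM, others from 13.4, median 16.3) and for RPL22P1 (71.8 CPM, median 33.4). CXCL8 was high in TK C (200.6 CPM, median of TK 176), and LIF in SPH D (690 CPM, median of SPH 611) and TK B (480 CPM, median of TK 442). HSPA1A was low in DB C (31.2 CPM, median of DB 43.9) and SPH C (31.5 CPM, median of SPH 68.8), both of set 2. MKI67 was low in SPH A (206 CPM, median of SPH 333). SPP1 (18.2 CPM, median of TN 1.04) and the liver marker sum (1478 CPM, median of TN 136) were high in TN B.

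The crystal effect on CHAC1 differed between library sets (edgeR adjusted p = 0.00252): the 4 controls of set 2 held 15.7 to 20.5 CPM, against 2.88 to 3.15 CPM in the other 3. The adjusted p was at most 0.0395 over the other settings in which it was computed.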

How the results depend on the processing

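For any crystal against control, 1701 genes were called. The count was 652 with no set term, 988 with one crystal term, 1084 without TK, 100 within set 1 and 729 within set 2. With the replicate block, which takes the letter of a library as its pair, it was 158 in place of the set and 251 beside it. Of 20 pairs of a control and a form with the same letter, 11 correlated above 0.1 (-0.118 to 0.424). Once the set was removed 3 did so. In COM, DB, SPH and TN, letters A and B lie in set 1, C in set 2 and D in set 3. Removing the set thus also removes much of what a letter could share, so whether letters pair the samples cannot be decided. DESeq2 called 1986, and 1381 were called with fragment length as a covariate. For a form against the others, no filter gave 923 genes for COM, 283 for SPH and 868 for TN. With no set term COM had 199, DB 710, SPH 3, TK 4276 and TN 34. Fragment length as a covariate gave 923 for COM and 395 for TN, and TN C placed in set 1 gave 967 for TN, against 166. The set comparison called 164 with no filter. Set 3 alone could not be fitted, since it has 1 control.

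Leaving out 1 library at a time gave 916 to 1976 genes for any crystal, 2005 to 3571 for evenness and 1 to 5 for the set comparison, which could not be fitted without Control G. It gave 42 (without COM A) to 891 for COM, 317 (without DB D) to 2002 for DB, 10 (without SPH B) to 66 for SPH, 1138 (without TK C) to 2152 for TK, and 20 (without TN B) to 1166 (without TN C) for TN. Of the 55 named genes called, 47 kept their call without any 1 library. The exceptions were CA9, CAMK2B, CCNE1, COX6B1, DDX58, ITPR1, RPL22P1 and ZNF814. Signs turned for 3 genes that were not called: HMOX1 (-0.0635 and -0.031 with the replicate block in place of and beside the set, -0.00683 without TN), CDH1 (-0.0205 without DB) and MMP1 (0.115 without TK). The causes of these changes were not tested.

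The 7 controls, of which 1 stands for set 3 and 2 for set 1, limit the comparison. TK had no library outside set 2.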

Other observations

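Of 22 measured genes of TGF-beta signalling, the receptor TGFBR1 rose by log2 0.28 (SE 0.06, edgeR adjusted p = 0.0026), the feedback genes SKIL by 0.19 and PMEPA1 by 0.23, and SMAD6 fell. PMEPA1 was 0.69 with COM and -0.04 with SPH. The list's median was 0.01, against -0.01 over all genes tested.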
